A study of Homo sapiens with 4 samples.

Results

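Desmosome genes were followed in HCC1937, a human cell line established from a breast tumour and deficient in BRCA1, a DNA repair protein. The set held 10 genes of the 60487 in each file, found by symbol: the desmosomal cadherins DSC2, DSC3, DSG2 and DSG3, the plakin DSP, the armadillo proteins JUP, PKP1, PKP2 and PKP3, and the membrane protein PERP. The 4 groups were wtBRCA1 cells (HCC1937 with restored wild-type BRCA1, genotype labelled wild type) treated with OTX-015, wtBRCA1 cells in DMSO, vector cells (HCC1937 with an empty vector, genotype labelled BRCA1 -/-) treated with OTX-015, and vector cells in DMSO. OTX-015 (birabresib) inhibits BET proteins, whose bromodomains bind acetylated histones, and DMSO is its solvent. Its dose and duration, and whether each line was a clone or a pool, are not given in the sources used here. Each group had 1 library, so no value has a replicate and every difference between a pair of libraries is given with no test.

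Desmosomes are spot-like junctions that couple the keratin filaments of neighbouring epithelial cells. Desmocollins (DSC) and desmogleins (DSG) are calcium-dependent cadherins that bind across the gap between cells, plakoglobin (JUP) and the plakophilins (PKP) sit on their tails, and desmoplakin (DSP) ties the complex to keratin. DSC2, DSG2 and PKP2 are found in simple as well as stratified epithelia, whereas DSC3, DSG3 and PKP1 are typical of stratified epithelia and of basal cells, including those of the breast.

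The 4 cadherins lie in 1 cluster on chromosome 18, which spans 559 kb in hg38 (30990008 to 31549008, GENCODE 29) and holds 7 genes in the order DSC3, DSC2, DSC1, DSG1, DSG4, DSG3 and DSG2. DSG1 and DSG4 were listed at 0 FPKM in all 4 libraries and DSC1 was at most 0.0485 FPKM. DSC3 (ENSG00000134762) runs from 30990008 to 31042815 and DSC2 (ENSG00000134755) from 31058840 to 31102522, both on the minus strand, while DSG3 (ENSG00000134757) runs from 31447795 to 31478702 and DSG2 (ENSG00000046604) from 31498043 to 31549008 on the plus strand. The deposited loci of DSC2 and DSG2 extend past these ends, over the neighbouring DSC1 and DSG2-AS1, while those of the other 8 members equal GENCODE 29. The other members are scattered: PKP1 (ENSG00000081277) lies on chromosome 1 (201283452 to 201332993), DSP (ENSG00000096696, 7541575 to 7586717) and PERP (ENSG00000112378, 138088505 to 138107511) on chromosome 6, PKP3 on chromosome 11 (ENSG00000184363, 392614 to 404908), PKP2 on chromosome 12 (ENSG00000057294, 32790745 to 32896840) and JUP on chromosome 17 (ENSG00000173801, 41754604 to 41786931). The promoters of the 3 members typical of stratified epithelia are shown, because these members had the largest ratios between the lines, beside that of DSG2, whose level differed less. Each runs from 250 bases before to 50 bases after the transcription start, 5′ to 3′ on the gene's strand (RefSeq, GRCh38.p14), and capitals mark matches to the motifs named after them.
DSC3, chr18:31042693-31042992, minus strand: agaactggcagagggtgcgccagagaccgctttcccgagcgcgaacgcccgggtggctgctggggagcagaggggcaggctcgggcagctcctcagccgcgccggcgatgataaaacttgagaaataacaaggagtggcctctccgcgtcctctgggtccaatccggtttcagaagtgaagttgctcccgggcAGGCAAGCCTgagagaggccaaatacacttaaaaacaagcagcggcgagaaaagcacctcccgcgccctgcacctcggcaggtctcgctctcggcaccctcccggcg
DSG3, chr18:31447491-31447790, plus strand: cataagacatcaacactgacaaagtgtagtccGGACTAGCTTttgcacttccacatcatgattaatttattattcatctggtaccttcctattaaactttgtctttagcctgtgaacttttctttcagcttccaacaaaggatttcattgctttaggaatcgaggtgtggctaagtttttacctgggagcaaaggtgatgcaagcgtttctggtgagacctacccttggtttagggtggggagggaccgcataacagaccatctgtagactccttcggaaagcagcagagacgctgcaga
PKP1, chr1:201283256-201283555, plus strand: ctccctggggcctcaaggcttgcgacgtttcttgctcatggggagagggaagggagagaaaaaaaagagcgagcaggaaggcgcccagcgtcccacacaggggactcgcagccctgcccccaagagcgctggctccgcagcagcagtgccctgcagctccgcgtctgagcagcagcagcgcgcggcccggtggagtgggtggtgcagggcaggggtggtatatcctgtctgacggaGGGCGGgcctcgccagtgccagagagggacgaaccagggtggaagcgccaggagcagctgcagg
DSG2, chr18:31497927-31498226, plus strand: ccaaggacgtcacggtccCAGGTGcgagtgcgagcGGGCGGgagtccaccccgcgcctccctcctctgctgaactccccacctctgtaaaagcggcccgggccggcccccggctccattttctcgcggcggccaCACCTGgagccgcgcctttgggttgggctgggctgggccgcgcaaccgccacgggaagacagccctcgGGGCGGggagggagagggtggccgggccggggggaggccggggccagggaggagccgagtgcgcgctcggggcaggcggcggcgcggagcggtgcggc

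RefSeq promoters were matched for 8 of the 10 members (not PKP2 and PKP3), with 2 promoters each for DSC2 and JUP. Searched on both strands were a TATA box (TATAAA), a GC box (GGGCGG), the E-box of Snail and ZEB factors (CACCTG), an AP-1 motif (TGANTCA), a Grainyhead motif (AACCNGTT) and the half-site of the p53 family, and matches to different motifs were counted even where they overlap. GC boxes stood in 6 of the 8 matched members, including PKP1 and DSG2 but not DSC3 or DSG3, against 45.0% of 35116 promoters of the same length. The p53 family half-site matched in DSC3 and DSG3, against 6.63% of all promoters. CACCTG matched in DSC2, DSG2, DSP and JUP (20.6% of all promoters) and TGANTCA in PERP (7.71%), while TATAAA (11.5%) and AACCNGTT (1.73%) matched in 0 of the 8. The DSG3 promoter differed from the other members in composition. It was the lowest of the 8 in CpG pairs (6) and in G and C content (44.0%), against 25 CpG pairs in DSC3, 19 in PKP1 and 36 in DSG2, and a median of 14 over all promoters. Its longest exact run in common with a promoter of the cluster or of another member was 20 bases shared with DSG1, AAGTTTTTACCTGGGAGCAA, whereas the next longest run among the 45 pairs compared was 11 bases. A match is a run of letters and says nothing of binding.

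BRCA1 itself was listed at 2712 and 171.1 FPKM in wtBRCA1 cells under OTX-015 and DMSO. In vector cells BRCA1 was at 40.8 and 37.2 FPKM under OTX-015 and DMSO, so the lines differed in the direction of the labels. The ratio of OTX-015 to DMSO was 15.8 in the wtBRCA1 line and 1.10 in the vector line. For differences between treatments in the wtBRCA1 line, OTX-015 and the level of BRCA1 therefore cannot be told apart. FPKM is the number of fragments scaled by transcript length and by the total of mapped fragments, so it can be compared between genes. Under OTX-015 the 10 highest genes took 33.8% of all FPKM in wtBRCA1 cells and 39.2% in vector cells, against 15.3% and 17.4% under DMSO. Sequencing depth is unknown, since the files hold no counts. Of 5 epithelial markers none was at 0 in a library. EPCAM (377.3 to 442.9 FPKM), CDH1 (101.1 to 274.4) and ESRP1 (33.9 to 87.1) were not called between the lines, whereas the simple-epithelium keratins KRT8 (-1.87 log2, limma adjusted p = 0.000853) and KRT18 (-2.12 log2, limma adjusted p = 0.00231) fell in the wtBRCA1 line. KRT8 was at 4476 and 3185 FPKM in wtBRCA1 cells under OTX-015 and DMSO and at 23339 and 8160 FPKM in vector cells under OTX-015 and DMSO, and the 5 summed to 5355 and 3888 FPKM in wtBRCA1 cells and to 24737 and 9117 FPKM in vector cells, in the same order of treatments. Of 5 fibroblast markers 4 were under 1 FPKM in every library, COL1A1 being the exception at 1.86 to 9.78 FPKM, the 5 leukocyte markers summed to at most 0.663 FPKM, and the 3 endothelial markers to between 0.670 and 7.03 FPKM, with VWF at 0 in all. The part of these markers in the results was not tested. In a bulk sample, fewer cells of a type and less RNA per cell cannot be told apart.

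**Figure D1:**
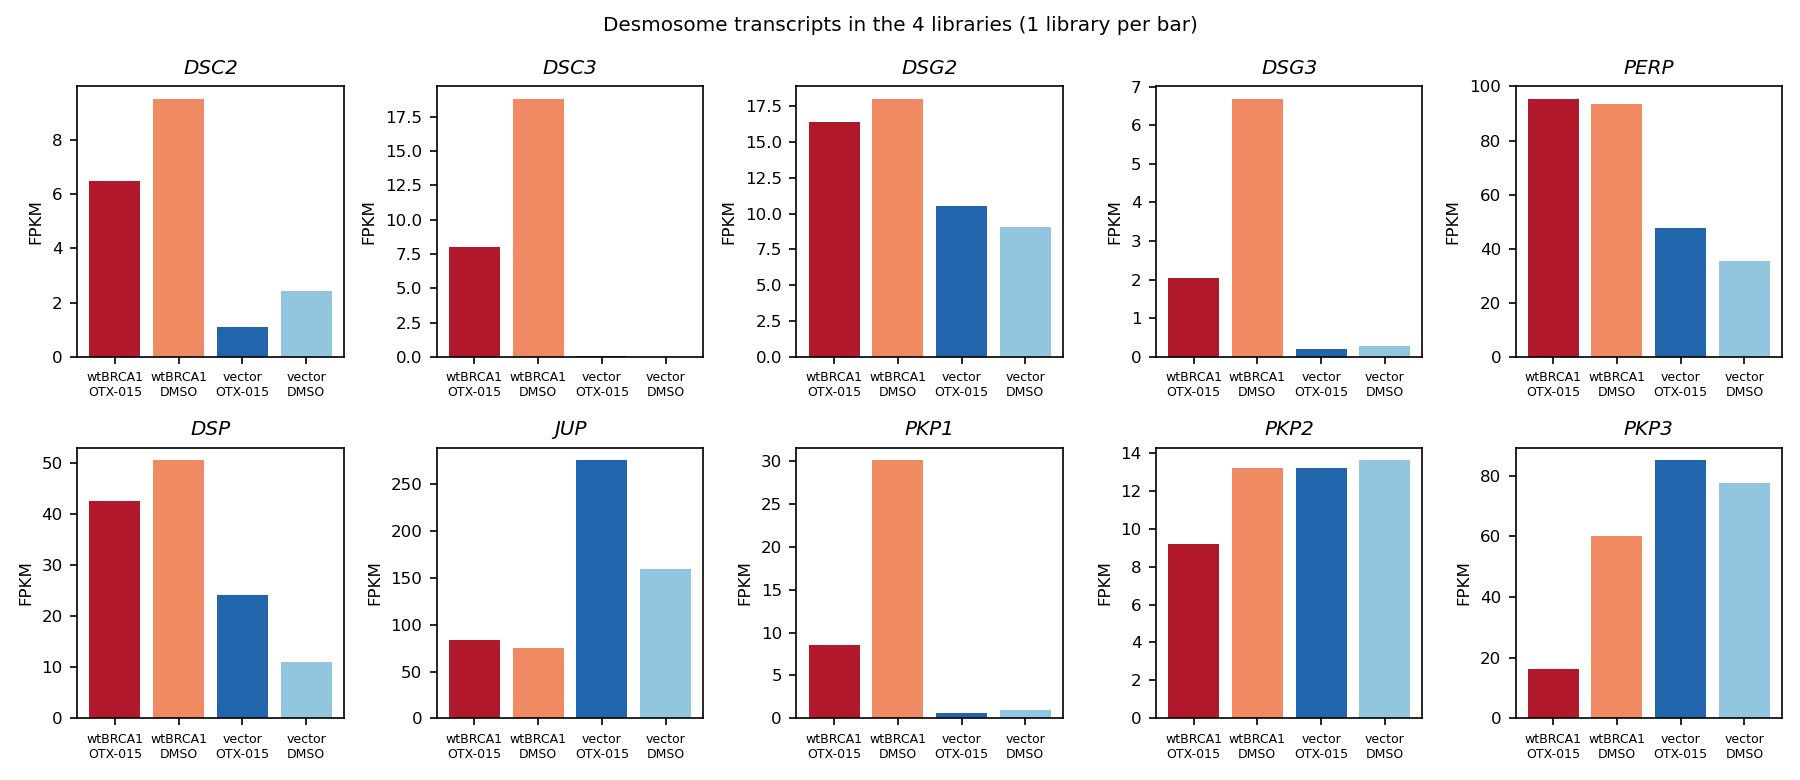
FPKM (vertical axes, from 0, a separate scale for each gene) of the 10 desmosome genes in the 4 libraries, 1 bar per library. DSC3, DSG3 and PKP1 stand at 1.02 FPKM or below in both vector libraries and at 2.03 FPKM or above in both wtBRCA1 libraries, while JUP and PKP3 are higher in the vector libraries.

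The first comparison set the wtBRCA1 line against the vector line over both treatments. DSC3, DSC2, PKP1, DSP and PERP rose in the wtBRCA1 line and JUP fell, while DSG2, DSG3, PKP2 and PKP3 did not pass the test. Of the 10 members 5 rose and 1 fell, where 4.88% of the 18296 genes tested rose and 3.41% fell (8.29% in either direction). The median effect over the members was 1.31 log2, beside 0.05 over all genes tested. Log2 here refers to log2(FPKM + 1), the threshold is an adjusted p of 0.05 in a limma fit with line and treatment as terms, and rose and fell are used for that fit. The fit uses the other factor in place of replicates, so its p-values measure agreement across that factor and not the spread between cultures, and the presence of BRCA1 and any other difference of the lines cannot be told apart. A filter kept genes with at least 1 FPKM in a library. All 10 members passed it, but DSC3 and DSG3 passed only through the wtBRCA1 line, so their direction was set by the filter and neither supports a direction of the set. Among the 8 members at 1 FPKM or more in a vector library 4 rose and 1 fell, with a median effect of 0.97 log2. PKP1, which rose, is among them only through its 1.02 FPKM in vector cells under DMSO (0.563 FPKM under OTX-015). The shares over all genes given above were not restricted in this way, so they are not a matched background for this count.

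Among the desmocollins, DSC3 was at 8.00 and 18.8 FPKM in wtBRCA1 cells under OTX-015 and DMSO, against 0.0755 and 0 FPKM in vector cells under OTX-015 and DMSO. The line effect was 3.69 ± 0.47 log2 (SE, limma adjusted p = 0.00201), a value whose direction the filter had fixed. With every gene above 0 FPKM in a library kept, the limma adjusted p was 0.034. DSC2, the desmocollin found most widely across epithelia, was at 6.47 and 9.51 FPKM in wtBRCA1 cells under OTX-015 and DMSO and at 1.10 and 2.44 FPKM in vector cells under OTX-015 and DMSO. It was 5.89 and 3.89 times as high in the wtBRCA1 line under OTX-015 and DMSO (1.72 ± 0.40 log2, SE, limma adjusted p = 0.0277). DSC3 and DSC2 are near neighbours in sequence, but only 31 of the 7056 stretches of 50 bases in DSC3's coding transcripts occur in DSC2. Over all members, the share of such stretches found in transcripts of any other gene ran from 0 in DSP, JUP, PKP1 and PKP3 to 6.0% in PKP2.

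Among the desmogleins, DSG3, the antigen of pemphigus vulgaris, was at 2.03 and 6.68 FPKM in wtBRCA1 cells under OTX-015 and DMSO, against 0.191 and 0.284 FPKM in vector cells under OTX-015 and DMSO. The wtBRCA1 libraries were 10.6 and 23.5 times as high under OTX-015 and DMSO, a direction that the filter had fixed. The effect of 1.96 ± 0.53 log2 lay just outside the threshold (SE, limma adjusted p = 0.0512), and the added 1 in log2(FPKM + 1) makes it smaller than the ratios. DSG2, the desmoglein of all desmosome-bearing tissues, was at 16.4 and 18.0 FPKM in wtBRCA1 cells under OTX-015 and DMSO and at 10.5 and 9.08 FPKM in vector cells under OTX-015 and DMSO. Its ratio between the lines was 1.55 under OTX-015 and 1.98 under DMSO, and the effect of 0.75 ± 0.35 log2 did not pass (SE, limma adjusted p = 0.23). DSG2 overlaps the antisense gene DSG2-AS1 over 6863 bases, which was listed at 14.9 and 26.1 FPKM in wtBRCA1 cells under OTX-015 and DMSO and at 15.5 and 8.98 FPKM in vector cells under OTX-015 and DMSO. The sources used here do not say whether reads were counted by strand, so reads of the 2 genes may be mixed. The other overlapping genes, at DSC2 and PKP2, were all under 1 FPKM.

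The plakophilins, which cluster cadherins and recruit desmoplakin, differed among themselves. PKP1, whose loss causes skin fragility, was at 8.56 and 30.1 FPKM in wtBRCA1 cells under OTX-015 and DMSO, against 0.563 and 1.02 FPKM in vector cells under OTX-015 and DMSO. These are ratios of 15.2 and 29.6, and the effect was 3.28 ± 0.44 log2 (SE, limma adjusted p = 0.00266). PKP2, the plakophilin of heart and simple epithelia, was at 9.20 and 13.2 FPKM in wtBRCA1 cells under OTX-015 and DMSO and at 13.2 and 13.6 FPKM in vector cells under OTX-015 and DMSO (-0.26 ± 0.35 log2, SE, limma adjusted p = 0.699), so the lowest value was that of wtBRCA1 cells under OTX-015 and the other 3 lay close together. PKP3, the most broadly expressed plakophilin of epithelia, was at 16.4 and 60.0 FPKM in wtBRCA1 cells under OTX-015 and DMSO and at 85.0 and 77.6 FPKM in vector cells under OTX-015 and DMSO. Both wtBRCA1 values lie below both vector values, by 80.7% under OTX-015 and 22.8% under DMSO, and the effect of -1.34 ± 0.43 log2 did not pass (SE, limma adjusted p = 0.0924).

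JUP, which also takes the place of β-catenin in adherens junctions, was the member with the highest level in vector cells. It was at 84.0 and 75.5 FPKM in wtBRCA1 cells under OTX-015 and DMSO, against 275.5 and 160.0 FPKM in vector cells under OTX-015 and DMSO, lower by 69.5% and 52.8% (-1.39 ± 0.28 log2, SE, limma adjusted p = 0.0169). DSP, the linker to keratin, went the other way, at 42.7 and 50.6 FPKM in wtBRCA1 cells under OTX-015 and DMSO and at 24.1 and 11.1 FPKM in vector cells under OTX-015 and DMSO. Its effect was 1.44 ± 0.38 log2 (SE, limma adjusted p = 0.0487), just inside the threshold. JUP therefore stood at 1.97 and 1.49 times the level of DSP in wtBRCA1 cells under OTX-015 and DMSO, against 11.4 and 14.4 times in vector cells under OTX-015 and DMSO. PERP, a tetraspan membrane protein of desmosomes and a target of p53 and p63, was at 95.4 and 93.5 FPKM in wtBRCA1 cells under OTX-015 and DMSO and at 47.7 and 35.3 FPKM in vector cells under OTX-015 and DMSO (1.18 ± 0.30 log2, SE, limma adjusted p = 0.0404).

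**Figure D2:**
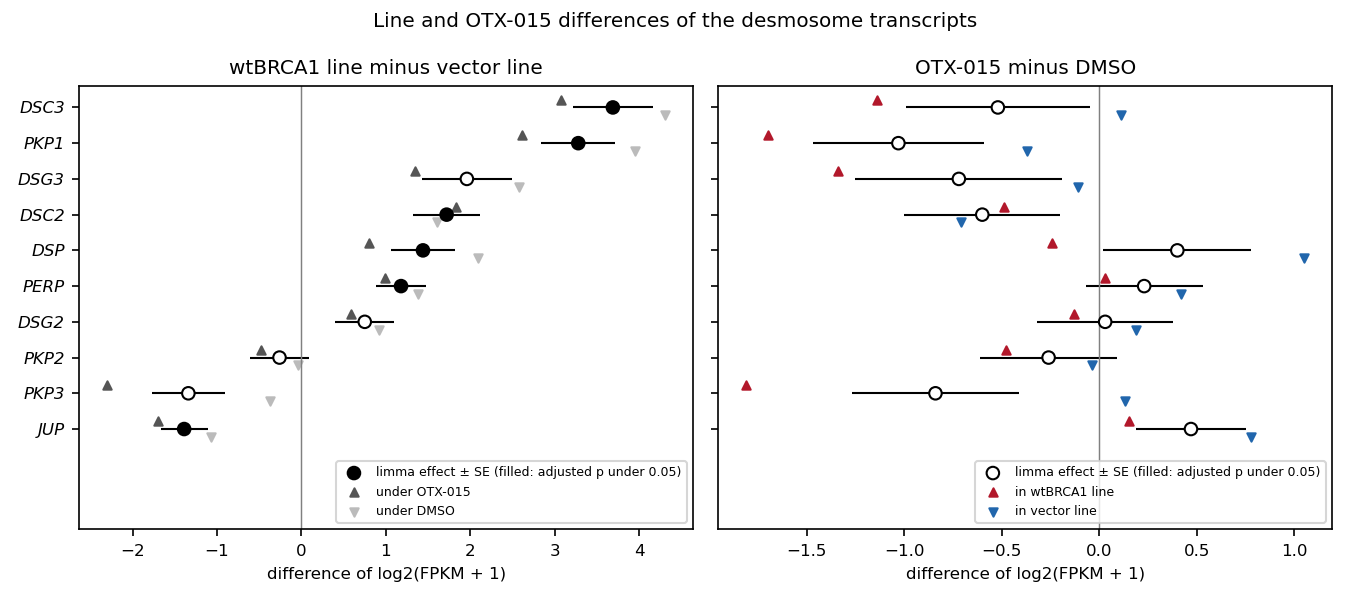
Differences of log2(FPKM + 1) of each desmosome gene between the lines (left) and between OTX-015 and DMSO (right). Circles are limma effects over both levels of the other factor with their SE, filled where the adjusted p is under 0.05, and triangles are the differences of single pairs of libraries. On the left DSC3 and PKP1 lie beyond 3 log2 and JUP at -1.39, while all circles on the right are open.

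How firmly these calls stand differed between members. Under 9 alternative settings of the analysis PKP1 kept its call in 8, JUP in 7, DSC2 in 4, PERP in 2 and DSP in 1. DSC3 kept it in 9, which says nothing of its direction where a filter was used. DSG3 passed in 1 of the 9, with robust estimation (limma adjusted p = 0.0431), and DSG2, PKP2 and PKP3 in 0. The sign of the line effect was the same in every setting for each of the 10 members, but most settings could not change it. Filters, variance settings and the highest row per symbol left each effect as it was. Pseudocounts could not turn a sign, because each member differed in the same direction under both treatments. Only the scalings could have turned it. By pairs of libraries, without a test, 4 members were at least 1 log2 higher and 2 lower in the wtBRCA1 line under OTX-015. Of the 18296 genes tested, 2748 were higher and 2312 lower by this measure (27.7% in either direction). Under DMSO 6 members were higher and 1 lower, beside 2715 and 2139 genes (26.5%). Both counts of higher members include DSC3 and DSG3, whose direction the filter had set.

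The make-up of each protein class can be read within a library, where a scaling of the whole library cancels. DSC3 made up 55.3% and 66.4% of the desmocollin FPKM in wtBRCA1 cells under OTX-015 and DMSO, against 6.42% and 0% in vector cells under OTX-015 and DMSO. After quantile normalization the share of DSC3 in vector cells under OTX-015 was 19.5%. DSC3 is the leading desmocollin in both wtBRCA1 libraries and DSC2 in both vector libraries. DSG2 remained the leading desmoglein in all 4 libraries, and the share of DSG3 was 11.0% and 27.0% in wtBRCA1 cells under OTX-015 and DMSO and 1.78% and 3.04% in vector cells under OTX-015 and DMSO (3.57% and 2.24% after quantile normalization). PKP3 led the plakophilins throughout, with PKP1 at 25.1% and 29.1% in wtBRCA1 cells under OTX-015 and DMSO and at 0.570% and 1.10% in vector cells under OTX-015 and DMSO. Summed over the class, desmocollins came to 14.5 and 28.3 FPKM in wtBRCA1 cells under OTX-015 and DMSO and to 1.18 and 2.44 FPKM in vector cells under OTX-015 and DMSO. The 10 members together summed to 289.0 and 375.9 FPKM in wtBRCA1 cells under OTX-015 and DMSO and to 458.0 and 310.5 FPKM in vector cells under OTX-015 and DMSO, a total in which JUP weighs most in vector cells. Without JUP the sums were 205.1 and 300.4 FPKM in wtBRCA1 cells and 182.5 and 150.5 FPKM in vector cells, in the same order of treatments.

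**Figure D3:**
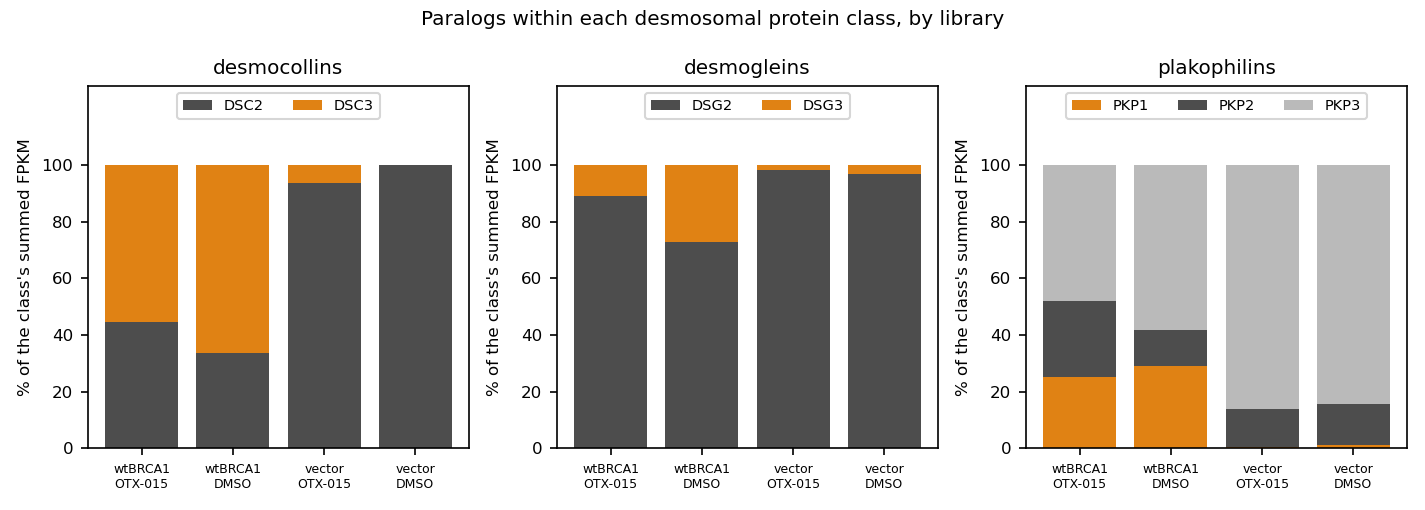
Share of each paralog in the summed FPKM of its class (vertical axes, percent) in each of the 4 libraries. The orange part (DSC3, DSG3 or PKP1) is visibly larger in both wtBRCA1 libraries, reaching 66.4% of the desmocollins under DMSO, and at most 6.42% in the vector libraries on the deposited scale (19.5% after quantile normalization).

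In order of level, PERP (95.4 and 93.5 FPKM) and JUP (84.0 and 75.5 FPKM) were the highest members in wtBRCA1 cells under OTX-015 and DMSO, and DSG3 was the lowest in both. In vector cells the order began with JUP, PKP3 and PERP and ended with PKP1, DSG3 and DSC3 under both treatments. With 1 library per group, no spread is known for neighbours in these orders, such as PERP and JUP in the wtBRCA1 line.

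The second comparison asked what OTX-015 did to the same transcripts in both lines. None of the 10 members passed the test for a common OTX-015 effect, against 6.32% of all genes tested (3.66% rose and 2.67% fell). At an unadjusted p under 0.05 the limma fit held 1 of the 10 members, PKP1, and 4170 of the 18296 genes tested, a lower share among the members. The effects ran from -1.03 ± 0.44 log2 for PKP1 (SE, limma adjusted p = 0.197) to 0.47 ± 0.28 log2 for JUP (SE, limma adjusted p = 0.374). The median over the members was -0.39 log2, beside 0.03 over all genes tested. The count was 0 in each of the 9 alternatives, of which the setting without a mean-variance trend called only 4 genes of any kind.

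Within the wtBRCA1 line 8 of the 10 members were lower under OTX-015 than under DMSO, and PERP and JUP were higher, by ratios of 1.02 and 1.11. PKP3 (72.7% lower), PKP1 (71.5%), DSG3 (69.6%) and DSC3 (57.4%) were at least 1 log2 lower, 4 of 10 members against 13.4% of all genes tested, and 0 members were 1 log2 higher (13.0%). With a pseudocount of 5 in place of 1, 2 members were past 1 log2 in this line. Smaller differences were seen in DSC2 (31.9% lower), PKP2 (30.4%), DSP (15.6%) and DSG2 (9.15%). The summed plakophilins thus came to 34.2 FPKM under OTX-015 and 103.3 FPKM under DMSO in this line. In the vector line 4 members were lower and 6 higher under OTX-015. Only DSP was past 1 log2 there, at 24.1 FPKM under OTX-015 and 11.1 FPKM under DMSO, a ratio of 2.17 (1 member higher and 0 lower, against 13.0% and 12.7% of all genes tested). That count was 2 with a pseudocount of 0.1 and 0 with a pseudocount of 5 or median-of-ratios rescaling. JUP had a ratio of 1.72, PERP of 1.35, DSG2 of 1.16 and PKP3 of 1.09. DSC2 was 55.0% lower in vector cells under OTX-015, PKP1 44.6%, DSG3 32.7% and PKP2 2.66%, the first 3 from levels of 2.44 FPKM or less.

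The difference of the responses, OTX-015 minus DMSO in the wtBRCA1 line less the same in the vector line, was negative for 9 of the 10 members and 0.22 log2 for DSC2. It was -1 log2 or lower for 5 members, against 14.0% of all genes tested, and 1 log2 or higher for 0 (13.2%). The values were -1.94 for PKP3, -1.33 for PKP1, -1.29 for DSP, -1.24 for DSC3 and -1.23 for DSG3. The median was -0.93 log2 over the members and -0.01 over all genes tested. This difference is the residual of the fit and has no test. DSC3, DSG3 and PKP1 were at 1.02 FPKM or below in vector cells, which leaves little room for a lower value there, whereas PKP3 and DSP were at 77.6 and 11.1 FPKM in vector cells under DMSO.

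**Figure D4:**
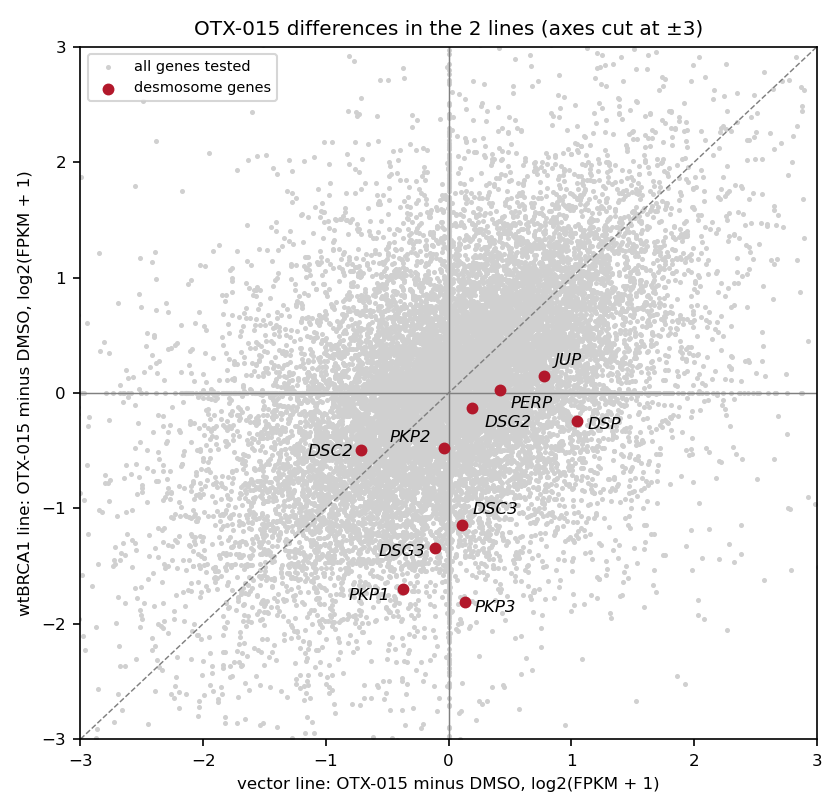
OTX-015 minus DMSO on the log2(FPKM + 1) scale in the vector line (horizontal axis) and the wtBRCA1 line (vertical axis), for all genes tested (grey) and the desmosome genes (red), with axes cut at 3 log2 and equal responses on the dashed line. DSC2 is the only desmosome gene above the dashed line, and PKP3, PKP1, DSG3 and DSC3 lie below -1 on the vertical axis.

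Genes that work with desmosomes were described from 6 lists. Of 12 keratins that desmoplakin can anchor, 5 rose and 5 fell in the wtBRCA1 line. KRT5, a basal keratin, was at 572.9 and 980.3 FPKM in wtBRCA1 cells under OTX-015 and DMSO and at 23.2 and 29.4 FPKM in vector cells under OTX-015 and DMSO (4.79 ± 0.27 log2, SE, limma adjusted p = 3.79e-05). KRT15, another basal keratin, rose by 2.03 log2 in the wtBRCA1 line and fell by 3.07 log2 under OTX-015. KRT13 had the largest line effect of the 12 (-9.61 log2), at 2.15 and 2.58 FPKM in wtBRCA1 cells under OTX-015 and DMSO. In vector cells KRT13 was at 2199 and 3141 FPKM under OTX-015 and DMSO. The simple-epithelium keratin KRT19 (-5.63 log2) fell in the wtBRCA1 line too, as did KRT8 and KRT18. The classes named here cover only some of the 12, so no rule by keratin class is read from them. KRT14 and KRT6B, at 8.53 FPKM or less in every library, did not pass (limma adjusted p = 0.077 and 0.0523). Some keratins have near-identical copies that can share reads. Under OTX-015 2 keratins rose and 2 fell.

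Of 9 hemidesmosome genes, which anchor epithelial cells to the basement membrane, 4 rose and 1 fell in the wtBRCA1 line. COL17A1, a transmembrane collagen of hemidesmosomes, rose by 2.23 ± 0.39 log2 (SE, limma adjusted p = 0.00844), and the integrin ITGB4 rose by 1.69 log2. CD151, a tetraspanin, fell by 2.31 log2. ITGA6 and LAMB3 had effects of 0.61 and 0.91 log2 and did not pass. Under OTX-015 PLEC, the plakin plectin that links keratin to hemidesmosomes, rose by 1.46 log2 and the other 8 were not called.

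Of 11 adherens junction genes 1 fell and 0 rose in the wtBRCA1 line. That gene was CTNNB1 (β-catenin), the close relative of JUP, at 50.6 and 37.1 FPKM in wtBRCA1 cells under OTX-015 and DMSO and at 131.5 and 103.2 FPKM in vector cells under OTX-015 and DMSO (-1.41 ± 0.29 log2, SE, limma adjusted p = 0.0175). The ratio of JUP to CTNNB1 ranged from 1.55 to 2.09 over the 4 libraries, a narrower range than that of JUP to DSP. CDH1 (E-cadherin) had a line effect of 0.12 log2 and rose by 1.31 ± 0.25 log2 under OTX-015 (SE, limma adjusted p = 0.0205), the 1 gene of this list called for the drug. CTNNA1 and CTNND1, which encode further catenins, had line effects of -0.25 and -0.31 log2 and did not pass.

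The list of other desmosome and cornified junction parts had 9 genes, of which 6 passed the filter and 0 were called for either effect by limma. PNN was at 82.2 to 96.1 FPKM, and the plakin PPL was at 32.0 and 14.6 FPKM in wtBRCA1 cells under OTX-015 and DMSO and at 45.9 and 17.8 FPKM in vector cells under OTX-015 and DMSO (OTX-015 effect 1.20 ± 0.33 log2, SE, limma adjusted p = 0.0614). Assembly factors, calcium pumps and shedding proteases had 0 of 9 measured genes called for either effect, with KLK5 at 362.2 to 524.0 FPKM and the calcium pump ATP2A2 at 74.8 to 161.2 FPKM.

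Of 15 transcription factors linked to desmosome genes, 12 passed the filter, and 1 fell in the wtBRCA1 line and 0 were called under OTX-015. The gene that fell was GRHL3, a Grainyhead factor (-1.69 ± 0.45 log2, SE, limma adjusted p = 0.0468), while GRHL2 and GRHL1 had effects of 1.06 and 0.20 log2 and did not pass. TP63, a master factor of basal epithelium named here after its values were seen, was listed at 0 and 9.93 FPKM in wtBRCA1 cells under OTX-015 and DMSO and at 0 and 0.147 FPKM in vector cells under OTX-015 and DMSO. Its high library was the one in which DSC3, DSG3 and PKP1 were highest, but so were DSC2, DSG2 and DSP. PERP, JUP, PKP2 and PKP3 were highest in other libraries. In wtBRCA1 cells under OTX-015, where TP63 was listed at 0, DSC3, DSG3 and PKP1 were at 8.00, 2.03 and 8.56 FPKM. The part of TP63 in the levels of the members was not tested. TP63's line effect of 1.63 log2 did not pass (limma adjusted p = 0.234).

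**Figure D5:**
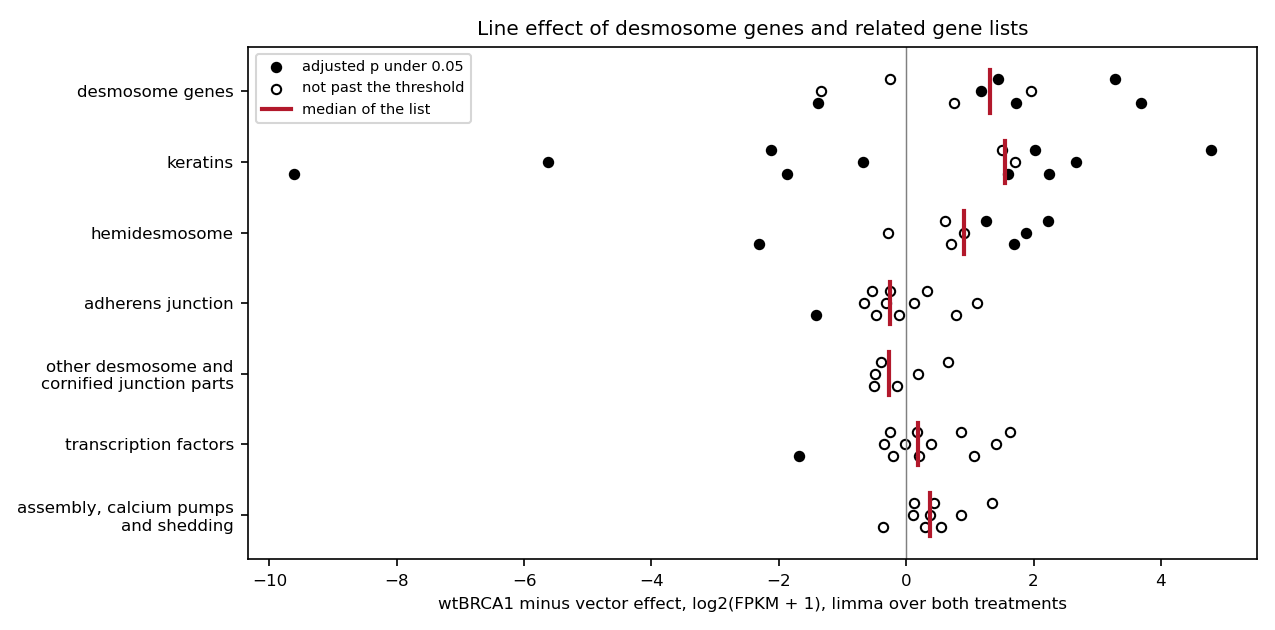
Line effect (wtBRCA1 minus vector, log2(FPKM + 1), limma over both treatments) of the desmosome genes and of 6 related lists, 1 point per gene, filled where the adjusted p is under 0.05, with the median of each list as a red line. Desmosome genes, keratins and hemidesmosome genes have medians of 1.31, 1.55 and 0.91 log2, and the other lists lie between -0.27 and 0.38.

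The genes whose values over the 4 libraries were most like those of 2 members were named by the Euclidean distance of centred log2(FPKM + 1) values among 14377 other genes. For DSC3, the member with the largest line effect, the nearest were DUOXA2 (distance 0.08 log2), CTSS (0.15), AGAP1 (0.41), SATB1 (0.45) and STAC (0.46). DUOXA2 was at 7.81 and 18.4 FPKM in wtBRCA1 cells under OTX-015 and DMSO and listed at 0 in both vector libraries. For PKP1, the member with the largest OTX-015 effect, the nearest were VIM-AS1 (0.26), ADD2 (0.33), KYNU (0.34), PSMB9 (0.36) and TYMP (0.44). With 4 libraries, closeness of this kind is a description only.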

How the data were processed

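RNA of 4 libraries, 1 per group, was selected for poly(A), and the kit was directional, according to the labels. The authors deposited FPKM values per gene. Per the submitters' processing notes, TopHat2, Cufflinks and hg38 were used. Tool versions, the annotation and how libraries were scaled are not given in the sources used here. No common step that would give depth was found among low values: below 0.3 FPKM at most 4 genes shared a ratio to the vector DMSO library.

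Values were joined by gene identifier, 7509 short structural RNA genes (GENCODE 29 types, or names) were left out, and rows of the same symbol were added up for 68 symbols. Genes with at least 1 FPKM in a library (18296) were analysed as log2(FPKM + 1), which understates changes of low genes. limma 3.58.1 (R 4.3.3) was fitted with line and treatment as terms and a mean-variance trend, leaving 1 residual degree of freedom per gene, and p-values were adjusted by Benjamini-Hochberg over these genes. The procedure was tested on simulated data with independent noise, in which changes were added only to genes of higher mean level. That simulation therefore does not cover low genes or responses that differ between the lines. Each group being 1 library, p-values do not measure biological replication. Alternatives were other pseudocounts, filters, scalings, variance settings and the highest row per symbol.

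The members and gene lists were chosen with earlier results of these data known. Named genes were all members, from each list up to 4 called genes with the largest effects and up to 2 highest uncalled ones, and the 5 nearest patterns. AFDN and the nectins were matched by Ensembl identifier. Coordinates are those of GENCODE 29 and promoters those of RefSeq. Python 3.11.15, pandas 2.3.3, numpy 2.4.6 and matplotlib 3.10.9 were used.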

Additional observations from a re-analysis of the deposited data

Results flagged for a closer look

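4 desmosome genes had OTX-015 differences of opposite direction in the 2 lines, as did 29.6% of all genes tested, and none of these differences was tested. PKP3 was lower under OTX-015 in the wtBRCA1 line (-1.81 log2) and slightly higher in the vector line (0.13 log2), a difference of responses of -1.94 log2. DSP was at -0.24 log2 in the wtBRCA1 line and 1.05 log2 in the vector line, a difference of -1.29. DSC3 was at -1.14 and 0.11 log2 in wtBRCA1 and vector cells, a difference of -1.24, with vector levels of 0.0755 FPKM or less. DSG2 was at -0.13 and 0.19 log2 in wtBRCA1 and vector cells, a difference of -0.33.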

How the results depend on the processing

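The count of desmosome genes called for the line moved with most settings. The direction of each effect did not, but only the scalings could have changed it. Of the 6 called by limma, 4 stayed called with a pseudocount of 0.1 or median-of-ratios rescaling and 3 (DSC3, JUP and PKP1) with a pseudocount of 5, an FPKM filter of 5 or quantile normalization, which gave 2 rises and 1 fall. With no filter 2 were called (DSC3 and PKP1) and without the mean-variance trend 1 (DSC3). Robust estimation also called 6, with DSG3 in place of DSP. Over all genes the line calls were 858, 828, 503, 722 and 172 with a pseudocount of 5, an FPKM filter of 5, no filter, quantile normalization and no trend, against 1516 as reported. The OTX-015 calls were 756, 453, 523, 80, 625, 120 and 4 with pseudocounts of 0.1 and 5, the filter of 5, no filter, median-of-ratios, quantile normalization and no trend, against 1157. The OTX-015 effect of DSG2 reversed from 0.03 to -0.03 log2 under median-of-ratios and to -0.0018 under quantile normalization. Members past 1 log2 for OTX-015 numbered 2 in the wtBRCA1 line with a pseudocount of 5, and in the vector line 2 with a pseudocount of 0.1 and 0 with a pseudocount of 5 or median-of-ratios. After quantile normalization the share of DSC3 was 55.4% and 66.6% in wtBRCA1 cells under OTX-015 and DMSO and 19.5% in vector cells under OTX-015, that of DSG3 27.1% in wtBRCA1 cells under DMSO and 3.57% and 2.24% in vector cells under OTX-015 and DMSO, and that of PKP1 25.2% and 28.9% in wtBRCA1 cells and 0.759% and 1.04% in vector cells. The cause of these moves was not tested. The number of genes tested changed with the filter, to 12525 with the FPKM filter of 5 and 24291 with no filter. The setting called no filter still left out genes at 0 in every library. Leaving out 1 library leaves no residual degree of freedom, and the remaining pair's difference is the value given in the report. No paired analysis of replicates was possible because each group had 1 library. Depth is unknown, so no limit of detection can be set for DSC3, DSG3 and PKP1 in vector cells.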
